A study of Mus musculus with 3 samples.

Results

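Collagen chains are the products of the genes whose symbol begins with Col, a type number, the letter a and a chain number. This pattern matched 45 of the 18038 genes in the deposited table, and 44 of these encode collagen chains. The remaining match, Col4a3bp, encodes a ceramide transfer protein that carries no collagen sequence. It lay at 25.6 ± 1.97 TPM and was left out of every sum and count. The chains were described in heart tissue from C57BL/6J mice, an inbred laboratory strain, of wild-type genotype on day 9 of postnatal life (3 samples). All 3 share strain, genotype, age and tissue and form a single group, so chains were compared with each other inside each heart, and hearts with hearts. They are named hearts 1, 2 and 3 by their replicate numbers. The labels do not tell whether the samples are separate animals, so every p-value covers only the spread among these samples, which may be technical.

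Collagens are secreted proteins built from chains that wind around each other into a triple helix. Fibrillar collagens bundle into the cables that give tissue its tensile strength, network-forming collagens make the sheets of basement membranes, and FACITs (fibril-associated collagens with interrupted triple helices) coat the fibrils. In the heart most fibrillar collagen is made by fibroblasts, while basement membranes surround cardiomyocytes and line vessels. Around birth and in the weeks after it, the matrix between the muscle cells is laid down rapidly.

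Levels are given in TPM, the authors' FPKM scaled so that each heart sums to 1000000, which corrects for gene length. A mean ± SD is over the 3 hearts. Library totals ran from 17766501 to 18768094 counts. Detection required 1 CPM (counts per 1000000 library counts) or more in every heart. The heart label was checked against marker lists: 6 of 6 cardiomyocyte, 7 of 7 fibroblast and 6 of 6 endothelial markers were detected. The same held for 7 of 7 smooth muscle and pericyte, 5 of 5 epicardial and mesothelial, 5 of 5 macrophage, 3 of 4 Schwann cell and 4 of 7 cartilage markers. Detection alone says little about the tissue, since 71.8% of all genes in the table were detected. By level, cardiomyocyte markers summed to 79552 ± 1739 TPM, fibroblast markers to 2407 ± 36.9 TPM and endothelial markers to 821 ± 60.4 TPM. Heart 1 stood apart in lung markers, whose summed level over 6 genes was 1618 TPM there, 0.520 TPM in heart 2 and 6.24 TPM in heart 3. None of those 6 genes was detected in every heart, and Sftpb, Sftpc and Sftpd were at 0 in hearts 2 and 3. Heart samples of this kind mix cell types, so fewer cells of a type and less RNA per cell cannot be told apart.

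Of the 44 chains, 37 (84.1%) were detected, beside 71.8% of all genes in the table. CPM is not corrected for gene length, so a long gene reaches the minimum at a lower TPM. Col6a5 (9.36 kb) was detected at 0.340 TPM, and Col9a3 (2.75 kb) was not at 0.708 TPM. The part of gene length in the higher share of chains was not tested. Detected chains spanned a 3620-fold range of mean level: 9 lay above 100 TPM, 9 between 10 and 100 TPM, 15 between 1 and 10 TPM and 4 below 1 TPM. All chains together made up 0.462% of TPM in heart 1, 0.501% in heart 2 and 0.499% in heart 3 (mean 0.487 ± 0.0218%). Counted as reads with no length correction the share was 1.41 ± 0.0666%. Transcripts were concentrated in few genes. Col3a1, Col1a1, Col4a1, Col1a2 and Col4a2 held 73.8 ± 1.03% of collagen TPM, and the 10 highest chains held 92.8 ± 0.182%. Ordered by mean level, neighbouring chains at 10 TPM or more were mostly separated, with overlapping ranges over the hearts in 5 of 17 neighbour pairs. Below 10 TPM the order was not resolved, and 23 of 26 neighbour pairs overlapped.

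**Figure D1:**
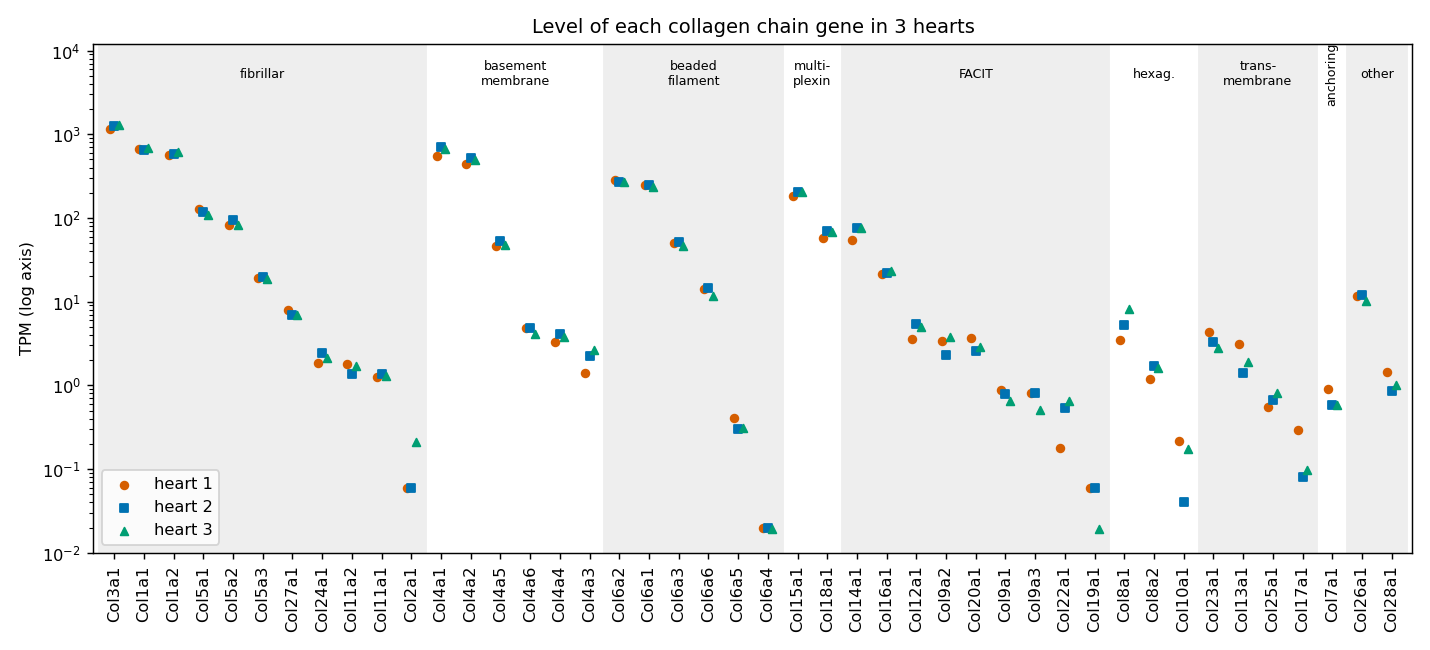
Level of each collagen chain in each heart, on a logarithmic axis of TPM, grouped by structural class (shaded bands) and ordered by mean level within each; symbols and colours give the heart. Col3a1 is highest in every heart at 1144 to 1292 TPM, and the 7 chains that missed the detection minimum all lie below 1 TPM.

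The transcript pool was mainly fibrillar. Fibrillar chains made up 56.7, 54.3 and 56.3% of collagen TPM in hearts 1, 2 and 3 (mean 55.7 ± 1.28%), and basement membrane chains 22.6, 25.8 and 24.2% (mean 24.2 ± 1.62%). The beaded filament chains of type VI took 12.0 ± 0.899%, the multiplexins 5.41 ± 0.141% and the FACITs 2.12 ± 0.171%. Each of the other classes stayed below 1% in every heart. Fibrillar over basement membrane TPM was 2.51, 2.10 and 2.33. Class sums were not tested, because with 3 hearts the smallest p of an exact sign-flip test is 0.25. Summed by collagen type, types I, III and IV were at similar levels: 1248 ± 41.7, 1231 ± 77.3 and 1179 ± 126 TPM, with ranges over the hearts that overlapped between all 3. Type VI followed at 583 ± 19.1, type V at 223 ± 12.4 and type XV at 198 ± 12.1 TPM.

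**Figure D2:**
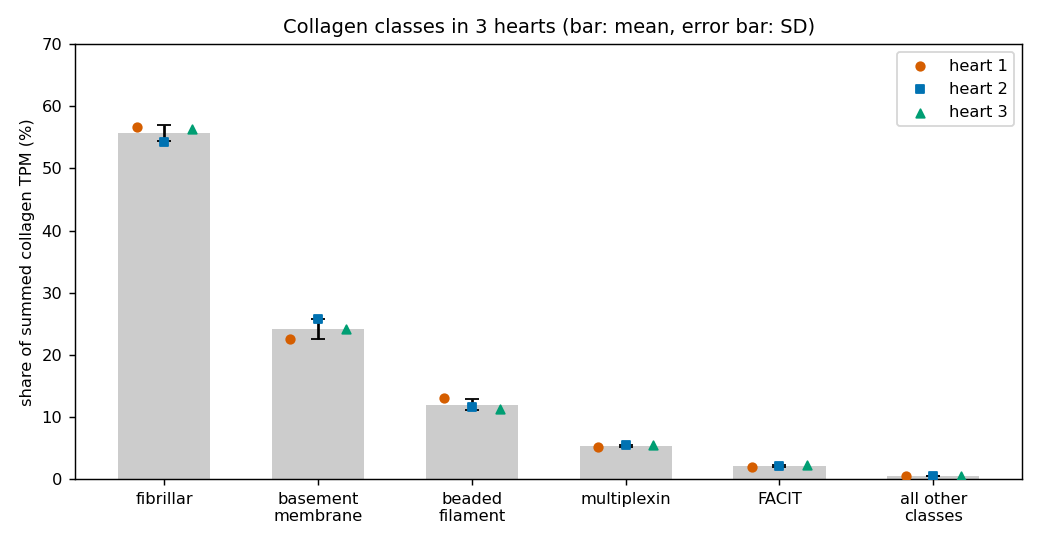
Share of collagen TPM taken by each structural class in each heart, in percent on an axis that starts at 0; bars are means, error bars the SD and points the 3 hearts. Fibrillar chains take 54.3 to 56.7% and basement membrane chains 22.6 to 25.8%.

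Among fibrillar chains, 10 of 11 were detected. Col3a1, the only chain of type III, a collagen of stretchable tissues such as vessel walls, was the highest collagen transcript. Its gene (Entrez gene ID 12825) lies at chr1:45311538-45349706 on the plus strand of GRCm38. It stood at 1144, 1256 and 1292 TPM in hearts 1, 2 and 3 (mean 1231 ± 77.3) and held 25.2 ± 0.581% of collagen TPM. The 250 bases before its RefSeq start (GRCm38.p6, chr1:45311288-45311537, plus strand) are shown because Col3a1 leads the family. Capitals mark the letters TATAAA, whose first base is 117 bases before the start.
Col3a1: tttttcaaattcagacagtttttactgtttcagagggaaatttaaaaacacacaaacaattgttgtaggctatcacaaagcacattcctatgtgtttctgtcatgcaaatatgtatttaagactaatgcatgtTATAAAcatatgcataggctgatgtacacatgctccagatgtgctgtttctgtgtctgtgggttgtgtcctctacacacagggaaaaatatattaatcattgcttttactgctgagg

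Type I collagen, the main cable-forming collagen of the heart, has a pair of Col1a1 chains and a single Col1a2 chain in its usual trimer. Col1a1 (gene ID 12842, chr11:94936224-94953042, plus strand) lay at 671, 642 and 687 TPM. Col1a2 (chr6:4504814-4541544, plus strand, by GENCODE M21) lay at 561, 575 and 608 TPM. Col1a1 was therefore above Col1a2 in every heart, by a margin that is small beside the range of the family. Col3a1 was above both in every heart.

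To test such differences, the log2 ratio of each gene to a reference chain was fitted within hearts, per gene length, for all detected genes and 12 reference chains with an edgeR quasi-likelihood fit. Of 155484 such ratios 94.1% passed an adjusted p of 0.05 (Benjamini-Hochberg over all of them). Of the 22 chain pairs tested, 20 passed: the reference chain was lower in 6 and higher in 14. A count like this is near the background, and so the sizes of the ratios are what distinguish the pairs. The smallest p-values should not be taken at face value, because all genes of a fit share the reference chain's own variation. A further fit gave gene and reference separate errors, added as if independent, which leaves out the pairing within a heart. Its p came from a t test computed from edgeR's fitted variances, not from an edgeR test. The smallest adjusted p of that t test among the pairs was 7.67e-08. Standard errors and intervals of these ratios were back-calculated from the F test against equal levels. They are not fitted standard errors and do not measure the spread between hearts. Col3a1 exceeded Col1a1 by a log2 ratio of 0.89 (standard error 0.0692, 95% interval 0.74 to 1.03, edgeR's adjusted p = 7.26e-10), a 1.85-fold difference. Col1a2 was below Col1a1 by -0.20 (standard error 0.0815, interval -0.37 to -0.03, edgeR's adjusted p = 0.0289). That call ended when both genes were given their own errors, without the pairing within a heart (t test's adjusted p = 0.193). The standard error in that fit was 0.134, while the ratios taken within each heart had an SD of 0.0532. The call also ended without each of hearts 1, 2 and 3 in turn (edgeR's adjusted p = 0.0885, 0.0912 and 0.0720). Under the alternatives run the log2 ratio of Col1a2 to Col1a1 stayed negative.

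Type V collagen is built into type I fibrils and sets their diameter. Col5a1 lay at 128, 118 and 109 TPM and Col5a2 at 81.8, 94.7 and 81.7 TPM, so that Col5a1 was higher in every heart. Col5a3, a chain found in a subset of type V trimers, was far lower at 19.4, 19.6 and 18.4 TPM. The log2 ratio to Col5a1 was -0.45 for Col5a2 (standard error 0.0952, edgeR's adjusted p = 0.00151) and -2.62 for Col5a3 (standard error 0.0982, edgeR's adjusted p = 4.43e-09). Type XI chains are close relatives of type V that prevail in cartilage. They were detected at low levels, Col11a1 at 1.30 ± 0.0503 and Col11a2 at 1.63 ± 0.234 TPM, and Col11a1 was below Col5a1 by -6.50 (standard error 0.188, edgeR's adjusted p = 5.95e-10). Col11a2 and Col11a1 were not separated (log2 ratio 0.33, interval -0.01 to 0.66, edgeR's adjusted p = 0.0606), nor in 6 of 7 alternatives. Without heart 2 the ratio was 0.47 (edgeR's adjusted p = 0.0347), and with no length correction it was 0.03 (edgeR's adjusted p = 0.862).

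Type XXVII and type XXIV are minor fibrillar collagens known from cartilage and bone. Col27a1 was at 7.88, 6.88 and 7.02 TPM, and Col24a1 at 1.86, 2.46 and 2.15 TPM. Every heart thus held more Col27a1, and the log2 ratio was 1.78 (standard error 0.131, edgeR's adjusted p = 5.48e-41). With separate errors the t test's adjusted p was 4.01e-05. Col2a1, the main collagen of cartilage, was the one fibrillar chain not detected, with 3, 3 and 10 counts. Cartilage markers summed to 21.9, 16.2 and 14.3 TPM. Of them Sox9 (8.47 ± 0.394 TPM), Comp (5.59 ± 3.08 TPM), Acan (2.11 ± 0.481 TPM) and Hapln1 (0.648 ± 0.0768 TPM) were detected. Cnmd, Matn3 and Matn1 were not, and Matn1, a cartilage matrix gene, had a count of 0 in every heart.

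All 6 chains of type IV, the scaffold of basement membranes, were detected, and they fell into 3 tiers. Col4a1 and Col4a2, which form the trimer of nearly all basement membranes, made the highest. Col4a1 was at 548, 710.4 and 659 TPM and Col4a2 at 439, 515 and 489 TPM. Both were lowest in heart 1 and highest in heart 2, and Col4a1 exceeded Col4a2 within every heart. Their log2 ratio was -0.40 for Col4a2 over Col4a1 (standard error 0.143, interval -0.68 to -0.12, edgeR's adjusted p = 0.00536), and the call did not hold when heart 2 (-0.37, edgeR's adjusted p = 0.0680) or heart 3 (-0.39, edgeR's adjusted p = 0.177) was left out. Across classes, Col4a1 was not separated from Col1a1: the log2 ratio was -0.06 (interval -0.25 to 0.13, edgeR's adjusted p = 0.533), with Col4a1 below Col1a1 in hearts 1 and 3 and above it in heart 2. Its sign turned with no length correction (0.10, edgeR's adjusted p = 0.274) and without heart 1 (0.05, edgeR's adjusted p = 0.5996).

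The genes of this pair face away from each other on chromosome 8 and share their start. In GENCODE M21 on GRCm38, Col4a1 covers chr8:11198423-11312826 on the minus strand and Col4a2 chr8:11312805-11449287 on the plus strand, so 22 bases belong to both. Those bases are shown as the place where the highest basement membrane chains meet (GRCm38.p6, chr8:11312805-11312826, plus strand). Capitals mark the GC box letters GGGCGG.
Col4a1 and Col4a2 shared start: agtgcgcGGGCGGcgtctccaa
The deposited table lists Col4a1 on the plus strand, and its strand differs from GENCODE for 10 of the 44 chains, Col4a1 included. Whether counting used strand is not given in the sources used here, and reads in the shared bases cannot be told apart.

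The other type IV chains are more restricted in the body. Col4a5, which assembles with Col4a3 and Col4a4 in kidney, lung and other organs and with Col4a6 around smooth muscle, was at 46.1, 53.7 and 47.1 TPM and made the middle tier. Its log2 ratio to Col4a1 was -3.70 (standard error 0.199, edgeR's adjusted p = 5.03e-76, or t test's adjusted p = 1.60e-07 with separate errors). At the lowest tier, Col4a6 was at 4.87, 4.86 and 4.16 TPM, Col4a4 at 3.30, 4.16 and 3.79 TPM and Col4a3 at 1.39, 2.26 and 2.61 TPM. Thus no heart held as much of any of the partners as of Col4a5. Col4a6 was below Col4a5 by -3.40 (standard error 0.160, edgeR's adjusted p = 1.43e-17) and Col4a3 below Col4a1 by -8.27 (standard error 0.333, edgeR's adjusted p = 1.16e-133). With separate errors the t test's adjusted p was 3.83e-07 for Col4a6 and 7.67e-08 for Col4a3. Col4a4 exceeded Col4a3 in 3 of 3 hearts by a log2 ratio of 0.92 (standard error 0.345, edgeR's adjusted p = 0.00842), a call that ended without heart 2 (0.95, edgeR's adjusted p = 0.236).

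These genes also sit head to head in pairs. Col4a4 and Col4a3 on chromosome 1 are 71 bp apart and lie at 3.75 ± 0.430 and 2.09 ± 0.629 TPM. Col4a6 and Col4a5 on chromosome X are 1308 bp apart and lie at 4.63 ± 0.409 and 48.97 ± 4.10 TPM. Of these head-to-head pairs, Col4a1 and Col4a2 differed by 0.40 on the log2 scale and Col4a5 and Col4a6 by 3.40.

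Type VI collagen forms beaded microfibrils that link cells to the matrix in muscle, and 5 of its 6 chains were detected. Col6a2 was at 286, 271 and 269 TPM and Col6a1 at 251, 247 and 236 TPM. Col6a3, the long chain that joins them in the usual trimer, was at 50.4, 52.3 and 46.3 TPM. Accordingly Col6a1 and Col6a2 were near each other, and Col6a3 was below both in every heart. The log2 ratio of Col6a3 to Col6a1 was -2.30 (standard error 0.0693, edgeR's adjusted p = 1.85e-08). Because Col6a3 is long, the ratio of counts with no length correction was smaller, at -1.09 (edgeR's adjusted p = 1.06e-06). Col6a2 over Col6a1 was 0.17 (standard error 0.0563, interval 0.04 to 0.31, edgeR's adjusted p = 0.0213). It missed the threshold with no length correction (0.10, edgeR's adjusted p = 0.147) and with separate errors for the genes (t test's adjusted p = 0.237). The same held without heart 2 (edgeR's adjusted p = 0.113) and without heart 3 (edgeR's adjusted p = 0.0756).

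Col6a4, Col6a5 and Col6a6 resemble Col6a3 and can take its place in the trimer. Of them Col6a6 was the highest at 14.2, 14.7 and 11.7 TPM. Col6a5 was at 0.340 ± 0.0613 TPM, and Col6a4 was not detected, with 1, 2 and 2 counts. Log2 ratios to Col6a1 were -4.18 for Col6a6 (standard error 0.0959, edgeR's adjusted p = 3.43e-09) and -9.50 for Col6a5 (standard error 0.246, edgeR's adjusted p = 7.24e-09), or -3.33 and -8.23 with no length correction. Col6a5 and Col6a6 had fractional counts, which arise when reads are shared out between genes, and their split is uncertain. Col6a6, Col6a5 and Col6a4 follow each other on the same strand of chromosome 9, with gaps of 27917 and 28810 bp.

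**Figure D3:**
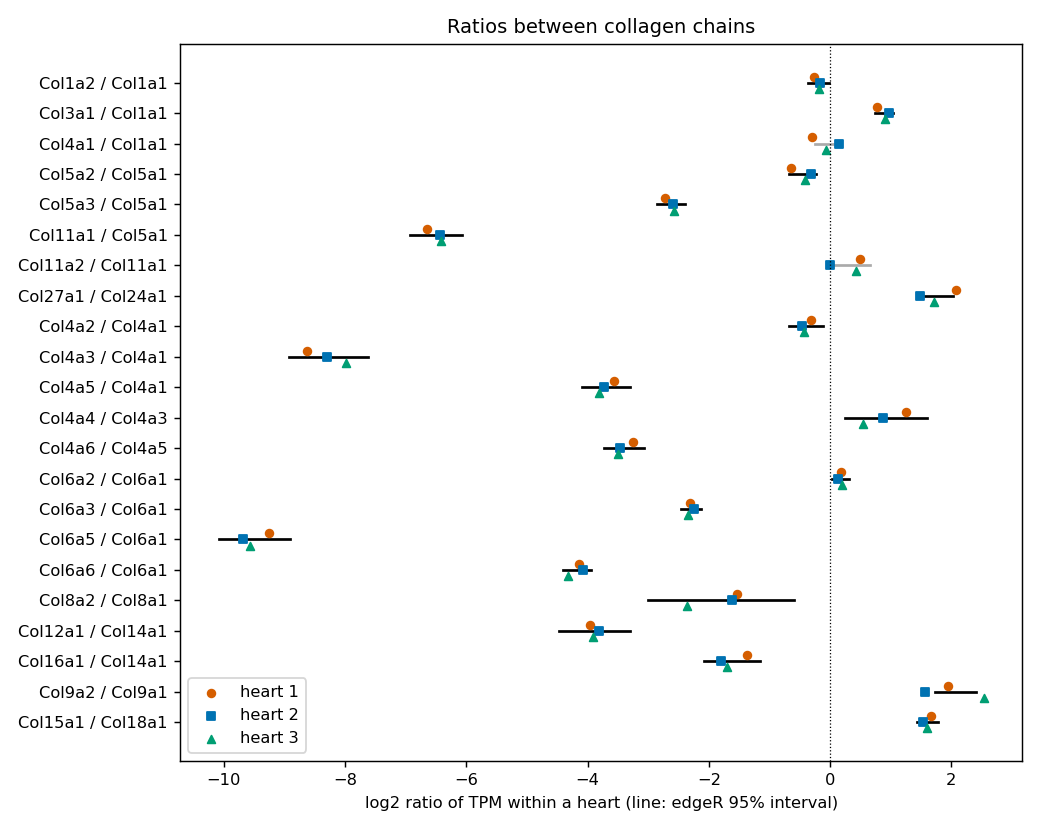
Log2 ratio of TPM for each of the 22 tested chain pairs, first gene over second. Points are the 3 hearts. Lines are the 95% interval of the edgeR ratio, back-calculated from its F test, and grey where the adjusted p missed 0.05. Col4a1 over Col1a1 and Col11a2 over Col11a1 are the grey lines, and Col6a5 over Col6a1 is the lowest at -9.50.

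Multiplexins carry many breaks in the helix and sit at basement membranes. Col15a1, prominent around muscle fibres and capillaries, was at 185, 205 and 206 TPM. Col18a1, whose tail is cut to release the vessel-regulating fragment endostatin, was at 58.0, 70.6 and 67.6 TPM. Both were lowest in heart 1, and Col15a1 was the higher in every heart, with a log2 ratio of 1.61 (standard error 0.0873, edgeR's adjusted p = 6.73e-24). Col15a1 was the highest chain outside types I, III, IV and VI.

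FACITs had 6 of 9 chains detected. Col14a1, a FACIT of fibril surfaces in soft connective tissue, led them at 55.1, 75.6 and 75.2 TPM. Col16a1, found near cells and fibrils of many tissues, was at 21.3, 21.7 and 23.1 TPM, and Col12a1, known from tendon, muscle and tissue under load, at 3.54, 5.38 and 5.03 TPM. Col14a1 exceeded both in every heart, although its own level was lowest in heart 1. Against Col14a1 the log2 ratio was -1.62 for Col16a1 (standard error 0.237, edgeR's adjusted p = 1.46e-11) and -3.89 for Col12a1 (standard error 0.298, edgeR's adjusted p = 2.17e-38), the latter -3.11 with no length correction.

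Among the remaining FACITs, Col9a2 and Col9a1, chains of the cartilage collagen IX, were at 3.18 ± 0.788 and 0.772 ± 0.111 TPM. Their log2 ratio was 2.07 (standard error 0.171, edgeR's adjusted p = 3.72e-33), with Col9a2 higher in 3 of 3 hearts. With separate errors the t test's adjusted p was 0.000343. Col9a3, the other chain of that trimer, fell just short of detection with 20, 21 and 13.5 counts, partly fractional, and its ratio was not tested. Col20a1 lay at 3.03 ± 0.544 TPM. Not detected were Col22a1, a collagen of the junction of muscle and tendon, with 10, 28 and 39 counts, and Col19a1 with 5, 5 and 2 counts.

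The hexagonal network chains of type VIII are made in vessel walls and in heart valves. Col8a1 was at 3.46, 5.28 and 8.22 TPM and Col8a2 at 1.19, 1.72 and 1.60 TPM. Heart 3 held 2.37 times as much Col8a1 as heart 1, the widest range of any detected chain. The log2 ratio of Col8a2 to Col8a1 was -1.80 (standard error 0.617, interval -3.01 to -0.59, edgeR's adjusted p = 0.00388), and this call ended without heart 2 (-1.89, edgeR's adjusted p = 0.192). Col10a1, the related chain of growth plate cartilage, was not detected, with 6, 1 and 5 counts.

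Transmembrane collagens stay anchored in the cell surface, and 3 of 4 were detected. Col23a1 was at 4.28, 3.30 and 2.78 TPM, Col13a1, found at muscle cell junctions, at 3.11, 1.42 and 1.91 TPM, and Col25a1, made by neurons and developing muscle, at 0.547, 0.660 and 0.812 TPM. Col17a1, of the hemidesmosomes of epithelia, had 14, 4 and 5 counts and was not detected. Col7a1, which forms the anchoring fibrils under epithelia, was detected at 0.899, 0.580 and 0.580 TPM. Heart 1 thus held the highest level of Col23a1, Col13a1 and Col7a1 and the lowest of Col25a1. None of these chains passed the test of variation between hearts given below (edgeR's adjusted p = 0.836 for Col13a1, larger for the others). Of the chains outside these classes, Col26a1 was at 11.3 ± 0.859 TPM and Col28a1, known from Schwann cells of peripheral nerve, at 1.10 ± 0.306 TPM.

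Collagen chains need a set of enzymes and carriers before they are secreted. Most of these genes were detected, beside 71.8% of all genes in the table. In the endoplasmic reticulum, prolines and lysines are hydroxylated and sugars attached, and 15 of 15 genes for these steps were detected, with a summed level of 1019 ± 11.01 TPM. P4hb, the shared subunit of the prolyl hydroxylases, was at 285, 275 and 265 TPM, Ppib, the cyclophilin of the prolyl 3-hydroxylation complex, at 277, 244 and 263 TPM, and Plod1, a lysyl hydroxylase, at 102, 106 and 102 TPM. Over the whole list the sum was nearly the same in each heart, at 1031, 1015 and 1010.5 TPM. Of the folding and export genes found in the table, 6 of 6 were detected. Serpinh1, the collagen chaperone, was the highest at 506, 575 and 556 TPM, ahead of Fkbp10, a prolyl isomerase, at 107 ± 11.7 TPM. Tango2, also on that list though it is not known to carry collagen, was at 65.9 ± 1.87 TPM. The list member Mia2 had no match by symbol.

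After secretion the end pieces of procollagen are trimmed, and 8 of 8 genes for this were detected, beside 71.8% of all genes. Pcolce, which enhances removal of the carboxyl end, was at 192 ± 3.98 TPM, Bmp1, the protease that removes it, at 90.4 ± 1.83 TPM, and Adamts2, which trims the amino end, at 41.4 ± 2.98 TPM. Among collagen receptors and uptake genes 9 of 10 were detected, all but the platelet receptor Gp6 with 1, 13.99 and 4 counts. Itgb1, the integrin subunit shared by all collagen-binding integrins, was at 385, 430.1 and 395 TPM, the kinase receptor Ddr1 at 50.8, 42.2 and 39.2 TPM and the uptake receptor Mrc2 at 24.5, 25.2 and 26.1 TPM.

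**Figure D4:**
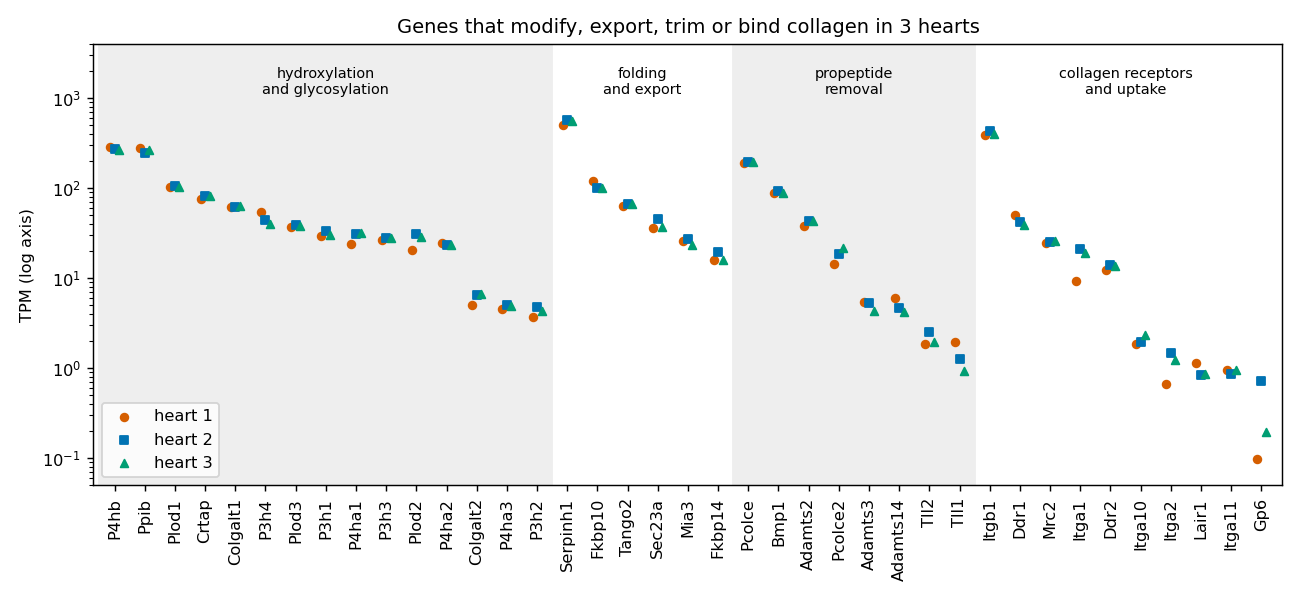
Level of genes that modify, fold, export, trim and bind collagen, in TPM on a logarithmic axis; points are the 3 hearts. Serpinh1 is highest at 506 to 575 TPM, and Itga1 is the gene with an adjusted p under 0.05 for variation between hearts.

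Whether a chain varied between hearts was asked with edgeR's goodness-of-fit statistic, which is the deviance from equal levels under the spread of genes of like abundance. Of all 12958 genes tested 1.67% passed (216 genes), and of the 37 detected chains 1 passed, Col8a1. Its counts were 158, 248 and 402 in hearts 1, 2 and 3 (edgeR's adjusted p = 0.00404). Heart 3 was the highest and heart 1 the lowest. The call held when heart 2 was left out (edgeR's adjusted p = 0.0161) and ended when heart 1 (edgeR's adjusted p = 0.0897) or heart 3 (edgeR's adjusted p = 0.985) was. With other size factors, no filter or a common dispersion its edgeR's adjusted p ran from 0.00101 to 0.0137.

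**Figure D5:**
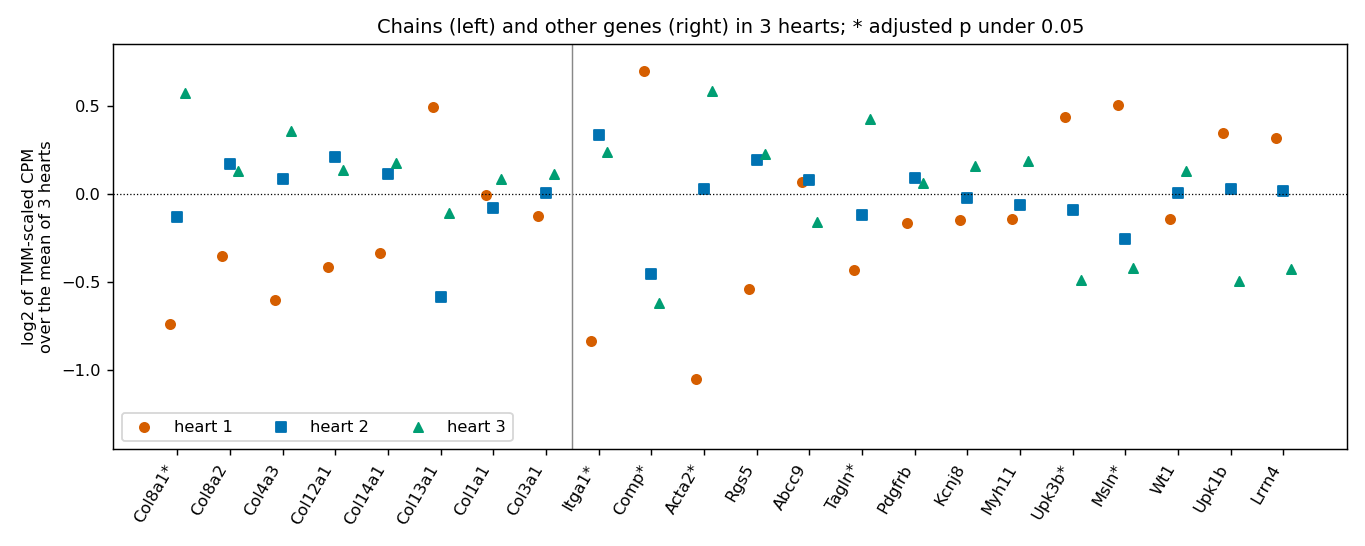
Log2 level of 8 chains (left of the line), Itga1, Comp, the 7 smooth muscle and pericyte markers and the 5 epicardial and mesothelial markers in each heart relative to their mean over the hearts, from TMM-scaled CPM. An asterisk marks an adjusted p under 0.05; Col8a1 is the only chain so marked, and Col1a1 and Col3a1 stay near 0.

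At an unadjusted p under 0.05, 3 further chains were found, and none passed the adjustment. They were Col4a3 (edgeR's adjusted p = 0.390), Col12a1 (edgeR's adjusted p = 0.558) and Col14a1 (edgeR's adjusted p = 0.694), each lowest in heart 1. The median log2 ratio of highest to lowest heart was 0.27 over the 37 chains and 0.23 over all genes tested. Chains at 10 TPM or more varied little, with a median coefficient of variation of 6.95% over 18 chains (3.19 to 17.1%). Below 10 TPM the median was 18.4% over 19 chains (3.86 to 42.4%). By TMM-scaled level, 18 detected chains were lowest in heart 1, 10 in heart 2 and 9 in heart 3, and 13, 12 and 12 were highest in these hearts. The same counts were not made over all genes, so they cannot be read as a trait of the collagen chains.

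Genes outside the family that varied are given beside Col8a1. Smooth muscle and pericyte markers summed to 898, 1477 and 1719 TPM, and 2 of the 7 passed. Acta2, smooth muscle actin, was at 303, 670.5 and 918 TPM (edgeR's adjusted p = 9.28e-09) and Tagln at 62.8, 78.2 and 108 TPM (edgeR's adjusted p = 0.0240). The rise of the sum from heart 2 to heart 3 rested on Acta2, since the other 6 genes summed to 595, 807 and 802 TPM. By TPM, 6 of the 7 markers were lowest in heart 1, while 4 were highest in heart 3 and 3 in heart 2. Rgs5, a pericyte marker, was at 267, 444 and 433 TPM, though highest in heart 3 by TMM-scaled CPM, and Abcc9 at 141, 142 and 115 TPM was lowest in heart 3. The part of these cells in the Col8a1 difference was not tested. Epicardial and mesothelial markers summed to 164, 118 and 94.1 TPM, and 4 of the 5 were highest in heart 1, with Msln (edgeR's adjusted p = 0.00554) and Upk3b (edgeR's adjusted p = 0.0151) past the threshold. Wt1, the other marker, was at 15.2, 16.9 and 17.6 TPM, highest in heart 3. Itga1, the integrin subunit that pairs with Itgb1 to bind type IV and type I collagen, was the only variable gene on the enzyme, export, trimming and receptor lists. It was at 9.33, 21.1 and 18.8 TPM (edgeR's adjusted p = 5.62e-05), lowest in heart 1. Comp, a cartilage and tendon matrix protein that binds fibrillar collagen, was at 9.13, 4.12 and 3.52 TPM (edgeR's adjusted p = 0.0205). The lung markers were also highest in heart 1, with sums of 1618, 0.520 and 6.24 TPM in hearts 1, 2 and 3. Whether the epicardial, mesothelial and Comp differences share a source with them was not tested.

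Promoters of the chains were read from RefSeq windows of GRCm38.p6, which were found for 35 of the 44 chains (38 windows, since a few genes have more than 1 start). Searching the 250 bases before each start on both strands, the GC box letters GGGCGG or CCGCCC were in 22 of the 38 windows (57.9%), compared with 32.7% of all 32851 windows. The CCAAT box (CCAAT or ATTGG) was in 13 (34.2% against 33.8%) and the TATA box letters (TATAAA or TTTATA) in 5 (13.2% against 12.4%). The Col3a1 window above is one of those 5 and holds neither of the other motifs. Col8a1, the chain that varied between hearts, had 4 GC boxes, beginning 170, 73, 66 and 23 bases before its start. Its window (chr16:57754738-57754987, minus strand) is shown because the variation test singled it out, with the GC box letters in capitals as CCGCCC.
Col8a1: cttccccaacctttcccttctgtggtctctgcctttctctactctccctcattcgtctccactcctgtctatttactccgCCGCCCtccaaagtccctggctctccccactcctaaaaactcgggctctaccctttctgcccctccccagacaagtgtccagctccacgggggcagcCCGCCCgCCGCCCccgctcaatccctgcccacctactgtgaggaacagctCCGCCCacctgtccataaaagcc
A match of letters is a description of the sequence and was not linked to the levels.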

How the data were processed

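Trizol-extracted RNA of 3 heart samples went into DNBSEQ sequencing libraries, per the labels' protocols. The authors deposited estimated counts per gene, since 87.5 to 87.6% of the values were within 0.005 of a whole number, together with FPKM per gene, per the file headers. Per the submitters' processing notes, HISAT was used with build GRCm38.p6. Neither a counting tool nor its use of strand is given in the sources used here. Depth ran from 17766501 to 18768094 counts, with 3 counts of a chain worth 0.0286 to 0.129 TPM (counting error only).

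TPM was computed from the deposited FPKM, and gene length from count and FPKM. Expected counts were rounded for edgeR 4.0.16 (R 4.3.3, limma 3.58.1, DESeq2 1.42.0). Pair ratios used edgeR's quasi-likelihood fit with an intercept and an offset of gene length times the reference chain's count per length. Because glmQLFTest takes no design of 1 column, the same F statistic was computed from the fitted deviances. The standard error given is the size of the log2 ratio over the square root of F, and the intervals were built from it. All genes of such a fit share the reference chain's own variation, which can make p too small. A fit with separate errors was therefore added after the data were seen. It took the variances of gene and reference from an edgeR fit and added them as if independent, without the pairing within a heart. Its p came from a t test of the log2 ratio computed from them, not from an edgeR test. Its adjusted p was larger for most pairs. It was smaller for Col4a4 over Col4a3 (0.00604) and Col8a2 over Col8a1 (0.000441). Variation between hearts used the goodness of fit under the trended dispersion with TMM factors of 1.02, 0.998 and 0.986. Both tests were two-sided or without direction, adjusted by Benjamini-Hochberg over all genes, and checked on simulated data. There the variation test called 57% of 2-fold and 99% of 4-fold changes placed in heart 1. A chain not called may therefore still differ 2-fold between hearts. The ratio test was simulated with Col1a1 as the only reference.

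The text names every chain and every listed pair. Of the enzyme, export, trimming and receptor lists it names the 3 highest genes. Marker lists are given by detected members, and some also by their sum. List members that varied between hearts are named. Chains, pairs and lists were chosen with earlier results of these data known. Neighbouring genes and Col1a2, Col4a1 and Col4a2 positions come from GENCODE M21, other positions from the table. Alternatives covered detection minimum, length correction, limma, filters, size factors, dispersion and leaving out each heart.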

Additional observations from a re-analysis of the deposited data

How the results depend on the processing

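Col4a1 over Col1a1, which was not past the threshold (log2 ratio -0.06), turned to 0.10 with no length correction and 0.05 without heart 1. The other 21 pair ratios kept their sign under every alternative run. The collagen share was 1.41% of counts with no length correction, against 0.487% of TPM. Of the 22 pairs tested, 19 passed with no length correction, 20 with limma on log2(TPM + 0.1), 20 with no filter, 18 with separate errors (added after seeing the data) and 16 to 19 without single hearts. Detected chains numbered 39 at 0.5 CPM, 39 at 10 counts and 37 to 38 without single hearts. Genes that varied between hearts fell from 216 to between 76 and 111 without single hearts (edgeR), and chains from 1 to between 0 and 1. The count was 0 without heart 1, with 2 chains at an unadjusted p under 0.05, and 0 without heart 3, with 4. With DESeq2 size factors 214 genes varied, with no filter 256 and with 1 common dispersion 264, each with 1 chain. With 2 hearts left the tests hold fewer samples. No paired analysis was possible because all samples form 1 group and the ratios are already taken within each heart. For chains under 10 TPM, counting error limits the order of levels.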
